A study of Homo sapiens with 16 samples.

Results

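Histone genes are described here in 2 human multiple myeloma lines, KMS12PE and KMS27, which carry the translocation t(11;14), and in clones of each line that tolerate venetoclax. Members were all gene symbols of the deposited count tables that follow the histone naming scheme (HIST1H to HIST4H for the clustered genes, and names such as H2AFZ, H3F3A or H1F0 for the genes outside the clusters), and 58 of 15529 listed genes met it. Of these, 46 are clustered genes and 12 are variant genes. The KMS27 table holds all 58, and the KMS12PE table holds 41, of which 30 are clustered and 11 are variant. The membership used names alone and no measured value.

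The tested populations were KMS12PE clones A, C and D, each set against the KMS12PE parental cells, and KMS27 clones B5, C1 and C5, each set against the KMS27 parental cells. Venetoclax blocks BCL2, a protein that keeps cells alive. The model is of cultured cells: each clone came from 1 cell after exposure of its line to a high dose, is thus 1 clone and not a population of resistant cells, and was kept in 100 nM of the drug. No drug is stated for the parental cells, so exposure, selection and single-cell origin cannot be told apart in any comparison. Each of the 8 populations has 2 libraries, 16 in all, and nothing states that they came from separate cultures, so p-values measure the spread between libraries, which may be technical.

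Total counts ran from 5831289 to 13674426 in the KMS12PE libraries and from 20257318 to 52615971 in the KMS27 libraries. A level is given as CPM, the count scaled to a common library total with TMM factors, and 3 counts were worth 0.219 to 0.514 CPM in KMS12PE and 0.057 to 0.148 CPM in KMS27. The deepest library was clone C1 replicate 1 of KMS27, and it stood apart from clone C1 replicate 2 in the summed clustered level. Of 11 plasma cell markers 10 were listed in both lines, at a summed 3553 to 4542 CPM in KMS12PE and 6135 to 12370 CPM in KMS27. None of 5 myeloid, 5 stromal or 5 erythroid markers was listed in either line. Of 5 T cell markers KMS12PE listed 1 (CD3G, at 0 to 1.76 CPM) and KMS27 listed 2 (CD3E and TRAC, at a summed 4.91 to 12.5 CPM). Of 4 mature B cell markers KMS12PE listed 0 and KMS27 listed 2 (MS4A1 and PAX5, at a summed 13.8 to 35.9 CPM). Their part in the results was not tested.

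Histones are the proteins around which DNA is wound, and they come in the core classes H2A, H2B, H3 and H4 and the linker class H1. Clustered genes are replication-dependent: they lie together on the chromosome, are transcribed mainly in S phase, and their main mRNA ends in a short stem-loop bound by SLBP in place of a poly-A tail. Variant genes lie outside the clusters, and most are expressed through the cell cycle and give ordinary poly-A mRNA. The libraries were made from poly-A RNA, so a clustered gene is seen through its polyadenylated or carried-over transcripts, and its level here is no measure of its full mRNA.

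The stem-loop is shown because it is what sets the mRNA of the clustered genes apart in such libraries. It was searched in the annotated transcripts (GENCODE 29, GRCh38), and capitals mark the 16 bases of the stem-loop within 6 bases on either side.
HIST1H2BG: ctcaaaGGCTCTTTTCAGAGCCactcaa
HIST2H2AA4: tcaaaaGGCTCTTTTCAGAGCCacccac
HIST3H2A: cataaaGGCTCTTTTCAGAGCCacctac
HIST1H2BD: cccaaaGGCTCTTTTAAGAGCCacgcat
HIST1H4H: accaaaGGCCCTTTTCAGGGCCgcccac
HIST2H4A: cccaaaGGCCCTTTTTAGGGCCgaccac
H2AFX: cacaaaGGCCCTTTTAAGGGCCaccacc
The consensus was found in 32 of 46 clustered genes, in 1 of 12 variant genes and in 0.0756% of 13221 other listed genes with a transcript. It took 7 forms. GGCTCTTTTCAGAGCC was carried by 5 H2A, 8 H2B and 3 H3 genes, and all 8 H4 genes that had a stem-loop carried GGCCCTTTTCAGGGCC or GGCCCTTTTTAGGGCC. H2AFX, the H2A variant that is phosphorylated at DNA breaks, was the variant gene with a stem-loop. In 25 of the clustered genes at least 1 annotated transcript ran more than 100 bases past the stem-loop. No stem-loop was found in 14 clustered genes, among them all 4 H1 genes, and several of these are annotated as coding sequence alone. A poly-A signal lay within the last 50 bases of a transcript in 24 of 46 clustered genes, 9 of 12 variant genes and 86.9% of the other genes.

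The largest cluster, HIST1 on chromosome 6 (chr6:26021679-27893843), holds 32 members. HIST2 (chr1:149782689-149887364) holds 10, HIST3 (chr1:228456979-228464626) holds 3 and HIST4 (chr12:14767999-14771131) holds 1. Every gene listed for a line had 5 counts or more in at least 4 of its libraries. The 17 members listed in KMS27 alone averaged 2.21 CPM or less there. The deposited lists also hold 5 pseudogenes with member names, HIST2H2BC, HIST2H2BD and HIST3H2BA among the clustered genes and H3F3AP6 and H3F3BP1 among the variant genes.

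Variant genes made up most histone counts in both lines. Clustered genes took 2.34% to 4.35% of histone counts in KMS12PE libraries and 13.2% to 21.9% in KMS27 libraries. Per kilobase of exon, H2AFZ, the H2A.Z variant found at promoters, and H3F3A, which encodes the replacement histone H3.3, led in both lines, at 291.6 and 289.9 CPM per kb in KMS12PE and 166.8 and 155.2 CPM per kb in KMS27. The ranges of these 2 genes overlapped over the libraries of each line. The next variant genes per kilobase in KMS12PE were H1FX at 102.9, H3F3B at 58.3 and H1F0 at 51.96 CPM per kb, and in KMS27 they were H2AFX at 54.95, H3F3B at 46.11 and H2AFV at 25.83 CPM per kb. H1F0 and H1FX, the linker variants H1.0 and H1X, were thus among the leading variants per kilobase in KMS12PE and held ranks 7 and 8 of 12 in KMS27. Levels set across the 2 lines come from tables counted separately and also hold the difference between their libraries.

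Among the clustered genes HIST1H1C, a linker histone H1 gene, was the most abundant in KMS27 at a mean of 102.3 CPM over the 8 libraries, with a range of 67.56 to 142.0 CPM. HIST2H2AA4 averaged 36.51 CPM, HIST1H2BK 31.46 CPM, HIST1H2AC 22.48 CPM and HIST1H2BG 14.28 CPM in the same libraries. In KMS12PE the leading clustered genes were far lower, with HIST1H2AC at a mean of 8.04 CPM, HIST1H1C at 7.47 CPM, HIST1H2BD at 7.30 CPM, HIST2H4A at 5.90 CPM and HIST2H4B at 4.51 CPM. The order per kilobase is unsure for genes such as HIST1H2BK and HIST1H1C, whose annotated 381 and 642 bases are coding sequence or little more.

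In bulk RNA, fewer cells that express a gene and less RNA of it per cell cannot be told apart. In KMS12PE the summed level of the clustered genes was 70.34 and 68.71 CPM in clone A, 78.19 and 75.09 CPM in clone C and 88.48 and 109.1 CPM in clone D, against 88.71 and 98.19 CPM in parental libraries. Both libraries of clones A and C lay below both parental libraries, and clone D spanned them. In KMS27 it was 341.8 and 386.7 CPM in clone B5, 222.6 and 336.3 CPM in clone C1 and 411.4 and 452.1 CPM in clone C5, against 225.7 and 257.9 CPM in parental libraries. Clones B5 and C5 lay above both parental libraries, at 1.51 and 1.79 times the parental mean, and clone C1 had 1 library at the parental level and 1 above it. No test was made of these sums. Without HIST1H1C the ratios to the parental mean were 1.60 in B5, 1.18 in C1 and 1.89 in C5, so that gene did not carry them alone.

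**Figure D1:**
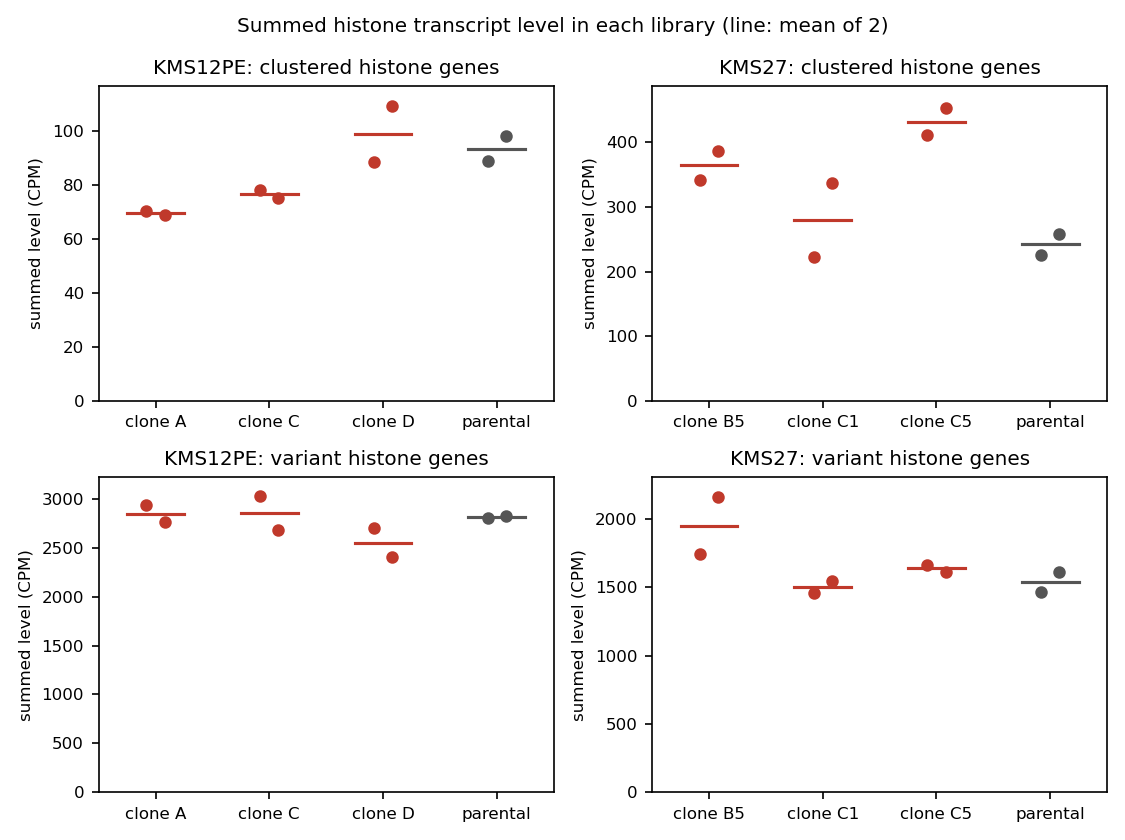
Summed level in CPM of the clustered (upper panels) and variant histone genes (lower panels) in each library of KMS12PE (left) and KMS27 (right); points are libraries, short lines are means of 2, clones are red and parental cells grey. The KMS27 B5 and C5 libraries sit at 341.8 to 452.1 CPM for the clustered genes, above the parental 225.7 and 257.9 CPM, while the variant sums of most populations overlap with or lie near the parental ones.

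In KMS12PE the summed level of the variant genes was 2935 and 2757 CPM in clone A, 3031 and 2680 CPM in clone C and 2695 and 2399 CPM in clone D, against 2798 and 2823 CPM in parental libraries. In KMS27 it was 1741 and 2159 CPM in clone B5, 1460 and 1548 CPM in clone C1 and 1662 and 1615 CPM in clone C5, against 1464 and 1613 CPM in parental libraries. Only clone D of KMS12PE and clones B5 and C5 of KMS27 lay fully outside the parental pair, and C5 by a margin of 2 CPM.

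By class of protein, the ratio of the KMS27 clones to parental was highest for H2B in each clone, at 1.86 in B5, 1.46 in C1 and 2.13 in C5, but in C1 that order rests on 1 gene. Without HIST1H2BG, left out after its values were seen, B5 had an H2B ratio of 1.63, C1 of 1.06 and C5 of 2.14, and in C1 it then lay below the 1.11 of H1 and the 1.07 of H2A. Summed clustered H2B was 100.4 and 118.0 CPM in clone B5, 67.5 and 104.3 CPM in clone C1 and 120.8 and 129.9 CPM in clone C5, against 59.45 and 58.31 CPM in parental libraries. All 6 clone libraries exceeded the parental pair for H2B. Without HIST1H2BG the H2B sum of clone C1 was 46.1 and 71.1 CPM, against 55.5 and 54.9 CPM in parental libraries, so C1 then spanned the pair, while B5 and C5 stayed above it. Summed clustered H3, at 7.60 to 7.90 CPM in B5, 5.54 to 8.83 CPM in C1 and 9.43 to 11.6 CPM in C5, against 7.83 and 7.84 CPM in parental libraries, was above the pair in both libraries of C5 alone.

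Single genes were tested with edgeR's quasi-likelihood test, with Benjamini-Hochberg adjustment over all genes of the line, and a gene was called at an adjusted p under 0.05. A log2 fold change (log2FC) is clone over parental. In KMS12PE 26 of 30 clustered and 11 of 11 variant genes had enough counts to be tested. HIST1H2AE, HIST1H4I, HIST2H3A and HIST2H3C had too few. In KMS27 43 of 46 clustered and 12 of 12 variant genes were tested, and HIST1H2AJ, HIST1H2AL and HIST1H4B had too few counts. The comparisons within a line share its 2 parental libraries.

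**Figure D2:**
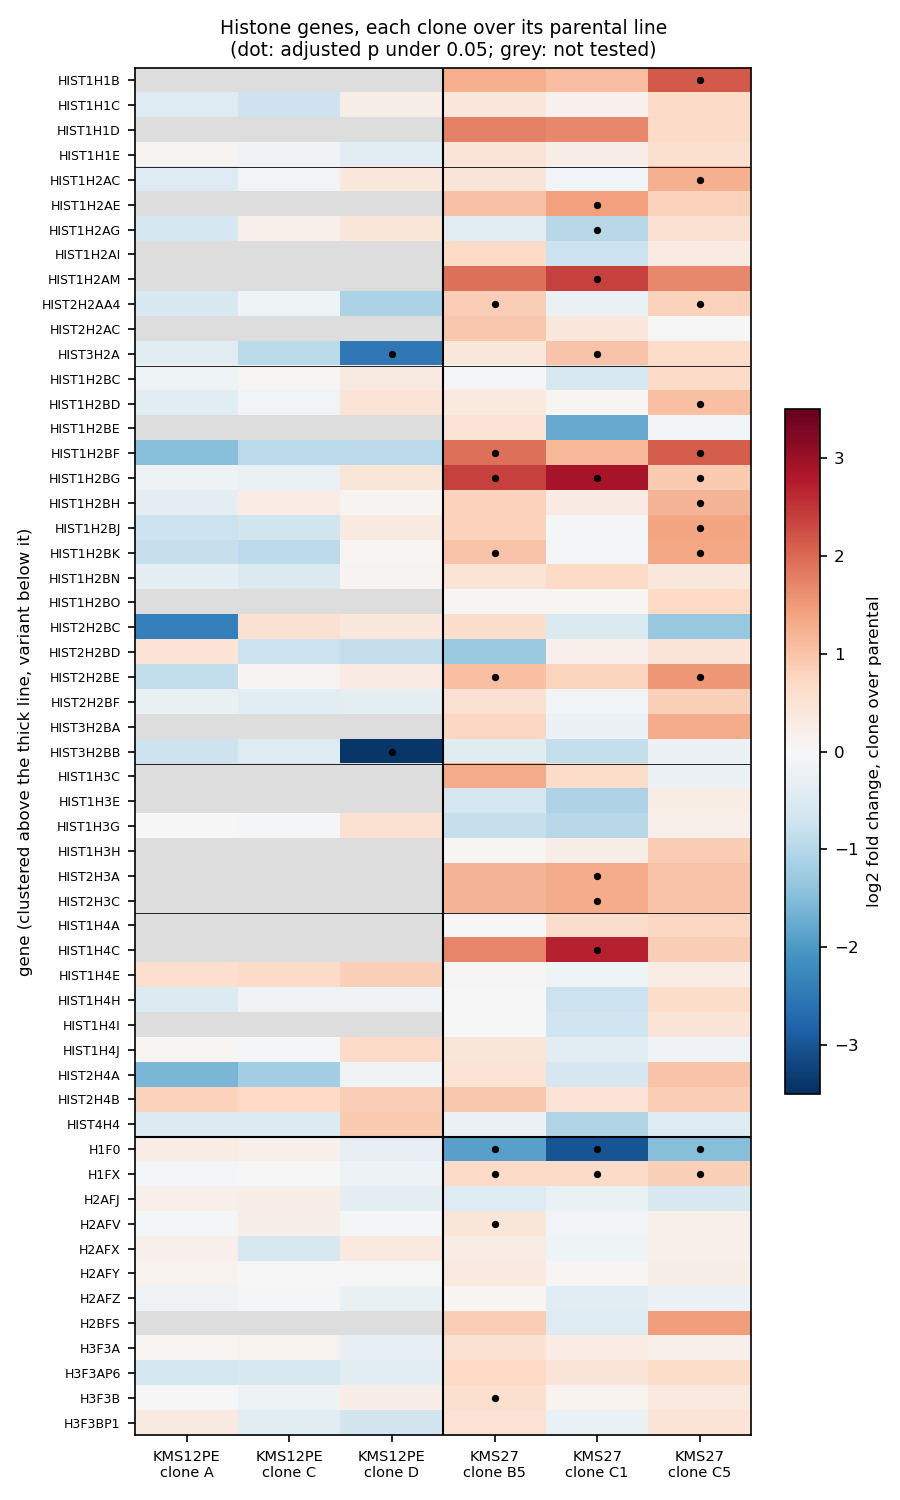
Log2 fold change of each tested histone gene (down the page, clustered genes above the thick line ordered by protein class, variant genes below it) in each clone over its parental line (across); red is higher and blue lower in the clone, a dot marks an adjusted p under 0.05 and grey marks genes not tested. In KMS12PE the 2 dots are HIST3H2A and HIST3H2BB in clone D, and in KMS27 H1F0 is blue and HIST1H2BG and H1FX are red in all 3 clones.

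In KMS12PE few genes of any kind were called, and 2 histone genes were among them. In clone A 0 of 26 clustered and 0 of 11 variant genes were called, where 0.448% of all tested genes were called in either direction, 0.212% higher and 0.236% lower. In clone C 0 of 26 and 0 of 11 were called, where 1.78% of all tested genes were called, 0.904% higher and 0.880% lower. At an unadjusted p under 0.05 edgeR gave 4 clustered genes lower in clone A (HIST1H2AC, HIST1H2BF, HIST2H2BC and HIST2H4A), and in clone C it gave 3 clustered genes lower (HIST1H1C, HIST1H2BK and HIST3H2A) and 1 variant gene lower (H2AFX). DESeq2 called 0 histone genes in either clone. With the replicate number as a block, HIST2H4A was called lower in both clones and H2AFX lower in clone C, where 3.65% (clone A) and 7.08% (clone C) of all tested genes were called. The HIST2H4A counts hold an uneven split with the copy HIST2H4B. Summed over both copies, in the fit without the block, the log2FC was -0.53 in clone A (adjusted p = 0.652) and -0.43 in clone C (adjusted p = 0.584). The median clustered log2FC was -0.43 in clone A and -0.13 in clone C, against 0.00 for all genes in both, and 5 and 7 of the 26 clustered genes had a positive log2FC.

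Clone D of KMS12PE had 2 clustered genes called, both lower, and 0 of 11 variant genes, where 5.16% of all tested genes were called, 1.86% higher and 3.31% lower. The median clustered log2FC was 0.26. For the variants, 1 gene higher (H2AFX) and 2 lower (H2AFJ and H2AFZ) had an unadjusted p under 0.05, and DESeq2 also called 0. The called genes were neighbours in the HIST3 cluster. HIST3H2A, an H2A gene, had 1.10 and 0.71 CPM in clone D, against 5.45 and 4.56 CPM in parental libraries. HIST3H2BB, an H2B gene, had 0.32 and 0.18 CPM in clone D, against 2.63 and 2.51 CPM in parental libraries. HIST3H2A lies at chr1:228456979-228457873 on the minus strand and HIST3H2BB at chr1:228458107-228460470 on the plus strand, each with 1 exon. The groups did not overlap for either gene, and the HIST3H2BB level in clone D rests on 2 counts in each library, against 15 and 16 counts in parental libraries. HIST3H2A fell by 2.50 on the log2 scale (SE 0.365, adjusted p = 0.00509), and HIST3H2BB fell by 3.41 (SE 0.560, adjusted p = 0.00903). The HIST3H2A call held without any single library (adjusted p up to 0.0475), while the HIST3H2BB call was lost without clone D replicate 3 or either parental library (adjusted p up to 0.0824).

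Clones A and C did not share the low HIST3 levels to that degree. HIST3H2A had 3.37 and 4.33 CPM in clone A and 2.64 and 2.54 CPM in clone C, and HIST3H2BB had 1.57 and 1.55 CPM in clone A and 1.41 and 2.33 CPM in clone C. All of these values were below the parental pair of the same gene, and none passed the test. A joint test among the 3 clones gave an adjusted p of 0.0156 for HIST3H2A and 0.0229 for HIST3H2BB. The other 54 tested genes within 5 Mb of the HIST3 cluster had a median log2FC of -0.01 in clone D, with 6 called lower and 0 higher.

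HIST3H2A and HIST3H2BB lie head to head with 234 bases between their annotated starts, and the stretch between them is shown because both genes were low together. It is the RefSeq promoter of HIST3H2BB (current symbol H2BC26), 250 bases before its start on the plus strand (GRCh38.p14, chr1:228457853-228458102), and its first bases lie in HIST3H2A. Capitals mark CCAAT on either strand, the box found upstream of many histone genes.
HIST3H2BB: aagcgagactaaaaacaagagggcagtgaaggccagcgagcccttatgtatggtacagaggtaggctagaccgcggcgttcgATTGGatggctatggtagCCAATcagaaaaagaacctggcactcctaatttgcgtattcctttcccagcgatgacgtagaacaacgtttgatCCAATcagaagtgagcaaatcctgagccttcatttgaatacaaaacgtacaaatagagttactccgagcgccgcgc
The window holds CCAAT 3 times. The TATA box TATAAA and the octamer (the letters ATTTGCAT) were also searched on either strand and have no match in it.

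In KMS27 many more genes of any kind changed, and clustered histone genes that changed were mostly higher. In clone B5 5 of 43 clustered genes were called higher, where 10.8% of all tested genes were called higher. In clone C1 the count was 7 of 43, beside 11.5% of all genes, and in clone C5 it was 10 of 43, beside 10.4% of all genes. The B5 count is near its background. The 7 of C1 include HIST2H3A and HIST2H3C, which had equal counts in every library and carry 1 measurement between them. The C1 count is thus near its background as well. The 10 of C5 include HIST1H1B, which had enough counts to be tested only with its C5 libraries included. Called lower were 0 of 43 in B5 (10.2% of all genes), 1 of 43 in C1 (10.1%) and 0 of 43 in C5 (9.28%). At an unadjusted p under 0.05 edgeR gave 0 clustered genes lower in B5 and 0 in C5, and DESeq2 also called 0 in each. For the clustered genes the median log2FC of B5 was 0.49, that of C1 0.06 and that of C5 0.69, against 0.00, -0.01 and -0.01 for all genes, and 34, 23 and 36 of the 43 had a positive log2FC. The counts depend on single libraries: the number called higher ran from 3 to 11 in B5 (lowest without parental replicate 1 or either C5 library, highest without B5 replicate 1), from 1 to 10 in C1 (1 without parental replicate 1 or C1 replicate 2) and from 0 to 15 in C5 (0 without C5 replicate 2).

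HIST1H2BG had the highest log2FC of the clustered genes in clones B5 and C1. It encodes an H2B protein and lies in the HIST1 cluster (chr6:26215159-26216692, minus strand, 1 exon). Its level was 16.3 and 22.1 CPM in clone B5, 21.4 and 33.1 CPM in clone C1 and 7.08 and 6.90 CPM in clone C5, against 3.95 and 3.39 CPM in parental libraries. Every clone library exceeded both parental libraries, and the C5 libraries lay well below those of B5 and C1. The gene rose in B5 with a log2FC of 2.38 (SE 0.249, adjusted p = 0.000334). For C1 the log2FC reached 2.88 (SE 0.249, adjusted p = 0.000151), and for C5 it was 0.93 (SE 0.251, adjusted p = 0.0311). The B5 and C1 calls held without any single library. The C5 call was lost without either parental or either C5 library (adjusted p up to 0.157). The clones differed among themselves (adjusted p = 0.00342 in the joint test).

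HIST1H2AE, an H2A gene, starts 283 bases from HIST1H2BG on the other strand. It had 2.33 and 1.91 CPM in clone B5, 2.11 and 3.61 CPM in clone C1 and 1.52 and 2.12 CPM in clone C5, against 1.05 and 1.01 CPM in parental libraries. All 6 clone libraries were above the parental pair. It rose in C1 (log2FC 1.45, adjusted p = 0.0234, lost without either parental library or C1 replicate 2, adjusted p up to 0.129), while the values in B5 (1.04, adjusted p = 0.0827) and C5 (0.81, adjusted p = 0.171) did not pass.

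The 250 bases before the RefSeq start of HIST1H2BG (H2BC8; GRCh38.p14, chr6:26216689-26216938, minus strand) cover most of the stretch between these 2 genes. They are shown beside those of HIST1H2BK (H2BC12; chr6:27146859-27147108, minus strand), an H2B gene with lower values than HIST1H2BG in clone C1. Capitals mark the CCAAT box, the TATA box and the octamer on either strand. The octamer is known as the site of the factor OCT1 in H2B promoters.
HIST1H2BG: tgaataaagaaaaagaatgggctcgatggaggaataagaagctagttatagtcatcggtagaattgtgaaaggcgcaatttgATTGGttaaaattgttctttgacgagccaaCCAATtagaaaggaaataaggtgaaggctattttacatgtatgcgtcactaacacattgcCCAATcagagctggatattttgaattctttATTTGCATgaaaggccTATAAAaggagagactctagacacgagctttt
HIST1H2BK: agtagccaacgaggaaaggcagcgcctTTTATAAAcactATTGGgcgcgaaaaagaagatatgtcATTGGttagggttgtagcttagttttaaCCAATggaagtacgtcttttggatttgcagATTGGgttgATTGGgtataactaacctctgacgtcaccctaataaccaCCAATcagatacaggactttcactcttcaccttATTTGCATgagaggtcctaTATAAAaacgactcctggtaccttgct
Both hold the octamer and a TATA box close to the start, at 48 and 32 bases before it in HIST1H2BG and at 46 and 27 bases in HIST1H2BK. A RefSeq promoter was found for 41 clustered and 8 variant genes. CCAAT lay in the 250 bases before the start of 34 of the 41 (82.9%) and 7 of the 8, against 37% of 27305 genes with a RefSeq promoter. The TATA box lay in 25 of the 41 (61%) and 4 of the 8, against 13% of all genes. The octamer lay in 17 of the 41, against 2.03% of all genes, and these were 7 of 10 H2A and 10 of 13 H2B genes, with 0 of 4 H1, 0 of 6 H3 and 0 of 8 H4 genes. Among the H4 genes CCAAT was found in 1 of 8. The motifs overlap in places, as in HIST1H2BK, and a match describes letters alone.

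HIST1H2BK had 32.5 and 45.2 CPM in clone B5, 13.2 and 23.6 CPM in clone C1 and 47.8 and 50.8 CPM in clone C5, against 17.8 and 20.8 CPM in parental libraries. It lay above the parental pair in B5 and C5, and clone C1 spanned the pair. It lies at chr6:27146418-27146798 on the minus strand. It rose in B5 (log2FC 1.01, adjusted p = 0.0227) and in C5 (log2FC 1.35, adjusted p = 0.00668), and the clones differed (adjusted p = 0.0166). The B5 call was lost without either parental or either C5 library (adjusted p up to 0.127), and the C5 call without parental replicate 1 or C5 replicate 2 (adjusted p up to 0.0617). H2BFS, a near-identical H2B gene with 2 annotated loci on chromosome 21, stayed between 0.18 and 1.25 CPM and did not pass in any clone.

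HIST2H2AA4, an H2A gene of the HIST2 cluster, had 44.7 and 52.8 CPM in clone B5, 20.7 and 25.1 CPM in clone C1 and 48.0 and 46.9 CPM in clone C5, against 24.0 and 29.8 CPM in parental libraries. B5 and C5 lay above the parental pair and C1 overlapped it. It rose in B5 (log2FC 0.86, adjusted p = 0.00471) and in C5 (log2FC 0.82, adjusted p = 0.00596), and the value of C1 was -0.24 (adjusted p = 0.286). The B5 call held without any single library, and the C5 call was lost without parental replicate 1 or either C5 library (adjusted p up to 0.0589). A near-identical copy of this gene is known, so its counts are uncertain as to locus. HIST2H2BE, an H2B gene known for polyadenylated transcripts, had 15.2 and 15.1 CPM in clone B5, 8.36 and 17.2 CPM in clone C1 and 20.3 and 21.1 CPM in clone C5, against 7.94 and 6.63 CPM in parental libraries. All clone libraries were above the parental pair, and the gene was called in B5 (log2FC 1.06, adjusted p = 0.0309) and C5 (log2FC 1.50, adjusted p = 0.00727). Those calls were lost without either C5 library or parental replicate 2, and the B5 call also without parental replicate 1 (adjusted p up to 0.145 in B5 and 0.0608 in C5).

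**Figure D3:**
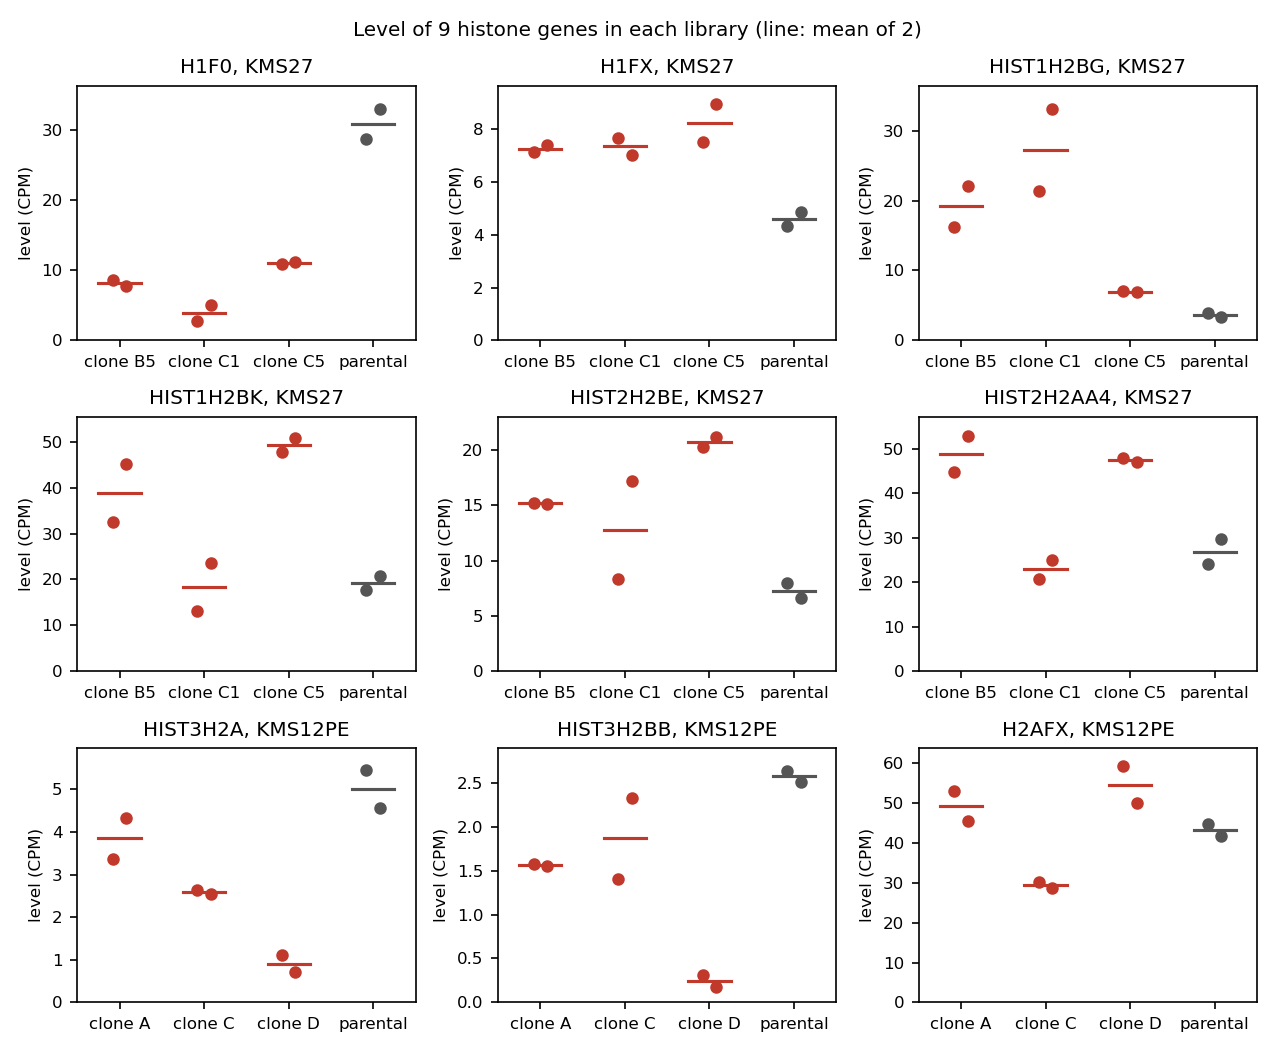
Level in CPM of 9 histone genes in each library; points are libraries, short lines are means of 2, clones are red and parental cells grey, and each panel names its gene and line. In KMS27 every H1F0 clone library (2.74 to 11.2 CPM) is below the parental 28.7 and 33.0 CPM, and in KMS12PE both clone D libraries of HIST3H2A and HIST3H2BB are below all others.

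Clone C5 of KMS27 had further clustered genes called higher, all of the HIST1 cluster and all but HIST1H1B of the H2A or H2B class. HIST1H2AC had 38.2 and 37.1 CPM in C5, against 15.2 and 16.4 CPM in parental libraries (log2FC 1.25, adjusted p = 0.0102). HIST1H2BD had 12.3 and 13.9 CPM in C5, against 5.91 and 6.79 CPM in parental libraries (log2FC 1.04, adjusted p = 0.00739). The groups did not overlap for either gene. HIST1H2BH (log2FC 1.20, adjusted p = 0.0177), HIST1H2BJ (1.39, adjusted p = 0.0276) and the H1 gene HIST1H1B (2.14, adjusted p = 0.0391) rose as well, the last on 20 and 13 counts in C5, against 2 and 5 counts in parental libraries. HIST1H1B had enough counts to be tested only with its C5 libraries included, so its call is not independent of that filter. HIST1H2BF rose in C5 (2.13, adjusted p = 0.011) and in B5 (1.94, adjusted p = 0.0169). In the test among clones HIST1H2AC (adjusted p = 0.021) and HIST1H2BD (adjusted p = 0.0236) passed and the other 4 did not. Each of these calls, HIST1H2BF in B5 included, was lost without parental replicate 1, and each C5 call was lost without C5 replicate 2. The HIST1H2AC, HIST1H2BH, HIST1H2BJ and HIST1H1B calls were also lost without C5 replicate 1, the last 3 without parental replicate 2 as well, and HIST1H1B without either C1 library. The highest adjusted p without 1 library was 0.0734 for HIST1H2AC, 0.0777 for HIST1H2BD, 0.0959 for HIST1H2BF in C5 and 0.128 in B5, 0.13 for HIST1H2BH, 0.159 for HIST1H2BJ and 0.251 for HIST1H1B.

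Genes of the H4 and H2A classes were called in clone C1. HIST1H4C, an H4 gene, had 2.12 and 3.38 CPM in C1, against 0.36 and 0.47 CPM in parental libraries (log2FC 2.71, adjusted p = 0.0123). HIST1H2AM, an H2A gene, had 0.87 and 0.73 CPM in C1, against 0.22 and 0.08 CPM in parental libraries (log2FC 2.40, adjusted p = 0.0294). HIST3H2A had 17.7 and 16.4 CPM in C1, against 6.71 and 10.3 CPM in parental libraries (log2FC 1.01, adjusted p = 0.0139). None of these groups overlapped. HIST3H2A was thus called higher in KMS27 clone C1 and lower in KMS12PE clone D, while its partner HIST3H2BB had 3.10 and 2.96 CPM in KMS27 clone C1, against 5.69 and 5.07 CPM in parental libraries, and did not pass (log2FC -0.83, adjusted p = 0.103). HIST1H2AG, an H2A gene, was the 1 clustered gene called lower, with 2.13 and 2.57 CPM in C1, against 4.57 and 4.60 CPM in parental libraries (log2FC -0.97, adjusted p = 0.0141). In clone C5 the same gene had 7.01 and 6.38 CPM, above the parental pair, and the clones differed (adjusted p = 0.00649). Each of these C1 calls was lost without parental replicate 1. Without parental replicate 2 the HIST1H4C, HIST1H2AM and HIST1H2AG calls were lost, without C1 replicate 1 those of HIST1H2AM, HIST1H2AG and HIST3H2A, without C1 replicate 2 those of HIST1H4C, HIST1H2AM and HIST3H2A, and without either C5 library that of HIST1H2AM (highest adjusted p without 1 library 0.0901 for HIST1H4C, 0.159 for HIST1H2AM, 0.106 for HIST3H2A and 0.118 for HIST1H2AG).

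Among the 12 variant genes of KMS27, 3 were called higher and 1 lower in clone B5, where 21.0% of all tested genes were called in either direction. In each of clones C1 and C5 1 was called higher and 1 lower, beside 21.6% and 19.7% of all genes. The linker variants H1F0 and H1FX moved in opposite directions. H1F0, which encodes H1.0, a linker histone that accumulates in non-dividing and differentiated cells, had 8.61 and 7.76 CPM in clone B5, 2.74 and 5.11 CPM in clone C1 and 10.8 and 11.2 CPM in clone C5, against 28.7 and 33.0 CPM in parental libraries. All 6 clone libraries were below the parental pair. The gene lies at chr22:37805093-37807436 on the plus strand, with 1 exon. H1F0 fell by 1.91 on the log2 scale in B5 (SE 0.245, adjusted p = 0.000984), by 3.01 in C1 (SE 0.257, adjusted p = 0.000146) and by 1.49 in C5 (SE 0.238, adjusted p = 0.00308). These calls held without any single library (adjusted p up to 0.0477), and the clones differed (adjusted p = 0.0134). H1FX, which encodes the linker histone H1X, had 7.12 and 7.39 CPM in clone B5, 7.67 and 7.03 CPM in clone C1 and 7.51 and 8.94 CPM in clone C5, against 4.32 and 4.88 CPM in parental libraries. All 6 clone libraries were above the parental pair. The gene (chr3:129314771-129316277, minus strand, 1 exon) rose in B5 (log2FC 0.66, adjusted p = 0.035), C1 (log2FC 0.68, adjusted p = 0.0296) and C5 (log2FC 0.84, adjusted p = 0.0132). The H1FX calls were lost without either parental library in every clone, and without C5 replicate 2 in every clone (adjusted p up to 0.203 in B5, 0.188 in C1 and 0.118 in C5). In B5 they were also lost without B5 replicate 2, either C1 library or C5 replicate 1, and in C1 without either C1 library. An antisense gene, H1FX-AS1, overlaps H1FX, and as strandedness is not given in the sources used here, reads of the pair cannot be told apart.

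In clone B5, H2AFV, an H2A.Z variant, had 139.9 and 159.5 CPM, against 109.6 and 113.5 CPM in parental libraries (log2FC 0.42, adjusted p = 0.0307). H3F3B, which encodes H3.3 as H3F3A does, had 327.5 and 368.7 CPM in B5, against 227.0 and 242.7 CPM in parental libraries (log2FC 0.57, adjusted p = 0.00988). The libraries of B5 lay above the parental pair for both genes. Both calls were lost without either parental library, and the H2AFV call also without B5 replicate 2 or either C5 library (adjusted p up to 0.181 for H2AFV and 0.104 for H3F3B). H2AFY, H2AFZ, H2AFX, H2AFJ, H3F3A, H2BFS and both H3.3 pseudogenes did not pass in any KMS27 clone. In KMS12PE no variant gene passed against parental cells in the fit without the replicate number. With that number as a block, H2AFX was called lower in clone C, and in clone D H2AFX and H3F3B were called higher and H1F0, H2AFZ and H3F3A lower, where 16.4% of all tested genes were called in clone D. H2AFX nevertheless differed among the KMS12PE clones (adjusted p = 0.00446), with 53.03 and 45.6 CPM in clone A, 30.1 and 28.6 CPM in clone C and 59.3 and 50.04 CPM in clone D, against 44.8 and 41.8 CPM in parental libraries. Clone C lay below every other library of the line.

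A joint fit of the 16 libraries asked whether the mean response of the 3 clones differed between the lines, KMS12PE minus KMS27. Of the 41 histone genes that both tables list, 6 were called, where 14.2% of 11623 genes were called in either direction, 6.45% with a higher and 7.70% with a lower response in KMS12PE. H1F0 had a response of 0.04 in KMS12PE and -2.15 in KMS27, a difference of 2.19 (SE 0.234, adjusted p = 3.65e-05). HIST1H2BF, HIST1H2BG, HIST1H2BK, HIST3H2A and H1FX were called with a lower response in KMS12PE. HIST1H2BG had 0.01 in KMS12PE and 2.05 in KMS27, and HIST3H2A had -1.28 in KMS12PE and 0.67 in KMS27. HIST1H2BF had a response of -1.13 in KMS12PE and 1.73 in KMS27 (difference -2.86, adjusted p = 0.00737). Among the clones of a line, 3 of 37 tested histone genes differed in KMS12PE, beside 8.22% of all genes, and 9 of 55 in KMS27, beside 13.7% of all genes. Both counts, and the 6 of the joint fit, are near their backgrounds.

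The genes that share a cluster were set beside their neighbours in KMS27. The 29 tested HIST1 members had a median log2FC of 0.45 for clone B5, 0.06 for C1 and 0.68 for C5. The other 146 tested genes within 5 Mb of the cluster had medians of 0.32, 0.21 and 0.33 in the same clones, and 359 genes of the short arm of chromosome 6 had 0.26, 0.25 and 0.31. Of the 146 neighbours 44 were called higher in B5, 39 in C1 and 50 in C5, with 3, 11 and 8 lower. Of the 29 members 3, 4 and 8 were called higher and 0, 1 and 0 lower. Over all tested genes 10.8%, 11.5% and 10.4% were called higher in these clones. The 13 other genes that lie between the first and last HIST1 member had medians of -0.09 in B5, -0.07 in C1 and -0.37 in C5. Around HIST2 the 10 members had medians of 0.90, 0.27 and 0.84, and 119 neighbours had 0.19, 0.16 and 0.25. The part of these neighbours' shift in the histone values was not tested.

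**Figure D4:**
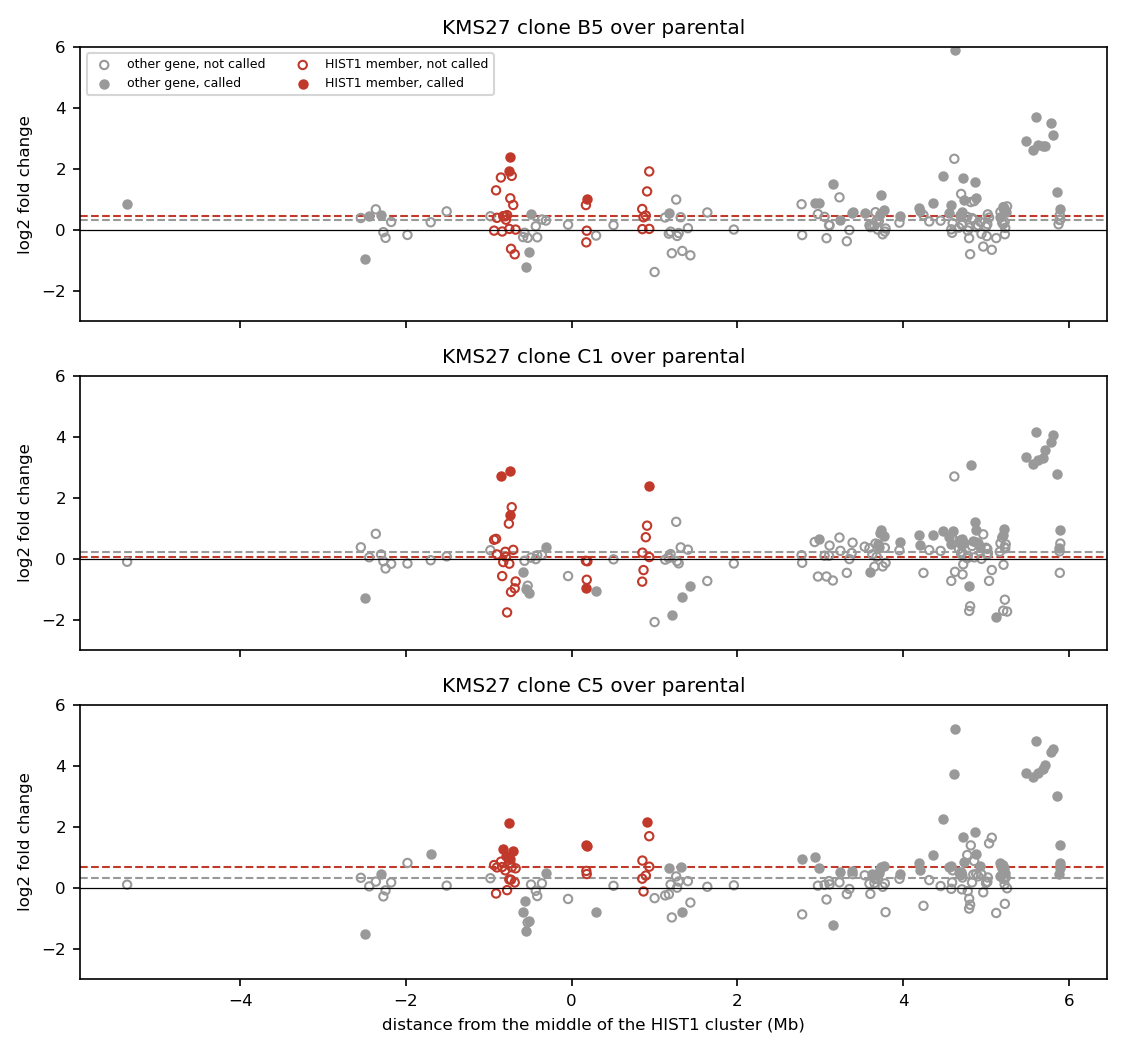
Log2 fold change over parental in KMS27 clones B5, C1 and C5 (top to bottom) of the HIST1 members (red) and of the other tested genes within 5 Mb of the cluster (grey), by distance in Mb from the middle of the cluster; filled points have an adjusted p under 0.05 and dashed lines are the medians of each kind. The red line lies above the grey line in B5 (0.45 and 0.32) and in C5 (0.68 and 0.33), and below it in C1 (0.06 and 0.21).

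Some members cannot be told apart by their reads. HIST2H3A and HIST2H3C, identical copies of an H3 gene, had equal counts in 16 of 16 libraries and carry 1 measurement between them (log2FC 1.29, adjusted p = 0.0423 in KMS27 clone C1, lost without either parental, C1 or C5 library, adjusted p up to 0.205, and by DESeq2 at an adjusted p of 0.0728). HIST2H2AA4 had 0 counts in KMS12PE clone D replicate 1 and 3.83 CPM in replicate 3. HIST2H4A and HIST2H4B, copies of an H4 gene that each overlap a copy of the H3 gene on the other strand, were split unevenly. KMS12PE clone D replicate 1 had 71 counts for HIST2H4A and 1 for HIST2H4B, while replicate 3 of the same clone had 57 and 111. In the KMS12PE parental libraries the counts were 29 and 35 in replicate 1 and 78 and 0 in replicate 3. Differences of either copy alone therefore hold this split. Summed, the pair had 32.5 and 29.9 CPM in KMS27 clone B5, 15.3 and 23.4 CPM in clone C1 and 34.9 and 38.1 CPM in clone C5, against 17.4 and 20.8 CPM in parental libraries. The sum was called in B5 (log2FC 0.71, adjusted p = 0.0294) and C5 (log2FC 0.94, adjusted p = 0.00977), where neither copy passed alone. In KMS12PE the sum did not pass in clone A (log2FC -0.53), clone C (-0.43) or clone D (0.17). This sum was chosen after the counts were seen.

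**Figure D5:**
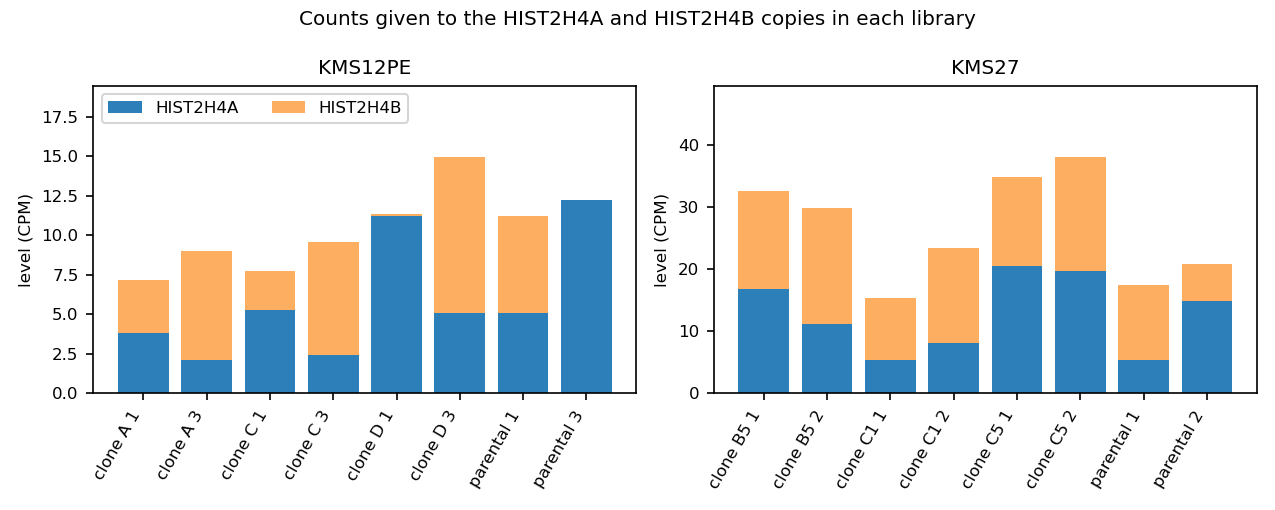
Level in CPM given to the copies HIST2H4A (blue, lower part of each bar) and HIST2H4B (orange, upper part) in each library of KMS12PE (left) and KMS27 (right), clones first. HIST2H4B took 111 of 168 counts in KMS12PE clone D replicate 3 and 1 of 72 in replicate 1, and 35 of 64 and 0 of 78 in the parental libraries.

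Of 7 head-to-head pairs with starts under 500 bases apart, HIST1H2BG with HIST1H2AE was given above. HIST1H2BC and HIST1H2AC had log2FC of 0.68 and 1.25 in clone C5, and only the second passed. HIST1H2BJ and HIST1H2AG had 1.39 and 0.55 in C5 and -0.07 and -0.97 in C1, with the first gene called in C5 and the second in C1. Both genes of a pair were called in the same clone for HIST1H2BG with HIST1H2AE in KMS27 clone C1 and for HIST3H2A with HIST3H2BB in KMS12PE clone D. Every other call in the 7 pairs was of 1 gene without its partner.

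Genes that act on histone genes were read from lists of textbook roles. In KMS27, of 19 tested genes for transcription and end processing of clustered histone mRNA, 3 were called higher and 2 lower in clone B5, 4 and 2 in C1, and 5 and 0 in C5. Over all tested genes 10.8% were called higher and 10.2% lower in B5, 11.5% and 10.1% in C1, and 10.4% and 9.28% in C5. SLBP, which binds the stem-loop, fell by 0.49 on the log2 scale in C1 (adjusted p = 0.0165), with -0.31 in B5 (adjusted p = 0.0887) and -0.34 in C5 (adjusted p = 0.067), which did not pass. NPAT, the coactivator of clustered histone genes, had values of -0.08, 0.01 and 0.05 in B5, C1 and C5 with no call, and CASP8AP2, its partner at histone loci, had -0.63, -0.70 and -0.50 with no call. CCNE2, a cyclin of the kinase that activates NPAT, rose in all 3 (log2FC 1.12 in B5, 0.47 in C1 and 0.97 in C5), as did CSTF2 (0.65, 0.54 and 0.69), the cleavage factor known for both kinds of mRNA end. SYMPK, of the same list, went the other way. It fell by 0.74 in B5 (adjusted p = 0.00816), and its values of -0.30 in C1 and -0.41 in C5 did not pass. In KMS12PE the same list had 0 calls in clones A and D and 1 in clone C, CPSF3 (log2FC 0.66, adjusted p = 0.015), the endonuclease that cuts histone mRNA. There 0.448% (clone A), 1.78% (clone C) and 5.16% (clone D) of all tested genes were called. SLBP and NPAT did not pass in any KMS12PE clone (-0.25 to 0.16).

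Of 16 genes that carry or deposit replication histones, 4 were called higher in KMS27 clone B5, 3 in C1 and 3 in C5, with 0 lower in each. Over all tested genes 10.8%, 11.5% and 10.4% were called higher and 10.2%, 10.1% and 9.28% lower in these clones. RBBP7, a histone-binding subunit of several complexes, had log2FC of 0.84, 0.65 and 0.78 in B5, C1 and C5, and CHAF1B, a subunit of the chromatin assembly factor CAF-1, had 0.60, 0.51 and 0.61. All 6 values passed. Of 17 genes for variant deposition 2 were called higher in B5, 1 higher and 1 lower in C1 and 2 higher in C5. ATRX, which deposits H3.3 with DAXX, rose in each (0.65, 0.65 and 0.80), and HIRA, another H3.3 chaperone, fell by 0.38 in C1 (adjusted p = 0.0449). NAP1L4, an H2A-H2B chaperone, fell by 0.79 in B5 and by 0.69 in C1, and SSRP1, a subunit of the FACT complex, fell by 0.61 in B5 and by 0.51 in C5. In histone mRNA decay 1 of 7 tested genes was called in B5 and in C5, the nuclease ERI1 (0.50 and 0.49). In KMS12PE 0 genes of these 4 lists were called in any clone, where 0.448% (clone A), 1.78% (clone C) and 5.16% (clone D) of all tested genes were called.

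Markers of S phase, the time at which clustered genes are transcribed, were read in the same way. Of 26 in KMS27, 13 were called higher and 2 lower in B5 (median log2FC 0.39), 6 and 3 in C1 (0.13) and 9 and 1 in C5 (0.32), beside the 10.8%, 11.5% and 10.4% of all tested genes called higher in these clones. In C1 and C5 most of the 26 did not pass. RRM2, a subunit of ribonucleotide reductase, rose by 2.15 in B5, 0.72 in C1 and 0.61 in C5, and POLA1, of DNA polymerase alpha, rose by 0.96, 0.79 and 1.16. In KMS12PE the 26 markers had 0 calls in clones A and D and 2 in clone C, RRM2 higher (0.75, adjusted p = 0.0145) and TK1 lower (-1.13, adjusted p = 0.00662). There 0.448% (clone A), 1.78% (clone C) and 5.16% (clone D) of all tested genes were called. The part of the S-phase markers in the histone values was not tested. RNAs with no poly-A tail, taken by symbol, can enter such libraries by carry-over, and other sources of their reads were not tested. Of 12 tested in KMS27, 2 were called higher and 1 lower in B5, 0 and 5 in C1 and 0 and 1 in C5. Over all tested genes 10.2%, 10.1% and 9.28% were called lower in these clones. The summed level of these RNAs in KMS27 was 44.3 and 46.6 CPM in B5, 31.3 and 27.8 CPM in C1 and 36.7 and 40.4 CPM in C5, against 44.5 and 45.2 CPM in parental libraries. RMRP had 0.18 and 0.12 CPM in C1, against 0.58 and 0.78 CPM in parental libraries (log2FC -2.11, adjusted p = 0.0167). That value rests on 9 and 3 counts in C1, against 16 and 20 counts in parental libraries, and is thus near the floor. The summed level of these RNAs spanned the parental pair in B5 and lay below it in C1 and C5. Within that sum RN7SK had 15.5 and 11.4 CPM in B5, 10.8 and 7.64 CPM in C1 and 17.8 and 21.2 CPM in C5. Its parental values were 15.6 and 15.7 CPM. The part of carry-over in the clustered histone level was not tested. In KMS12PE 0 of 10 such RNAs were called in any clone, where 0.448% (clone A), 1.78% (clone C) and 5.16% (clone D) of all tested genes were called.

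The clustered genes of KMS27 were also split by their annotated transcripts. Clustered genes with a transcript of 2 or more exons had median log2FC of 0.46 in B5, -0.34 in C1 and 0.75 in C5 (12 genes), and single-exon genes had 0.73, 0.23 and 0.69 (31 genes). Genes with a transcript that runs past the stem-loop had a summed level 1.46, 1.29 and 1.78 times the parental mean in B5, C1 and C5, and the other clustered genes 1.53, 1.07 and 1.79 times. For the other clustered genes the 2 C1 libraries differed, at 121.3 and 188.9 CPM, against 131.7 and 158.6 CPM in parental libraries, so the C1 ratio rests on replicate 2.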

How the data were processed

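Poly-A RNA libraries (Kapa mRNA HyperPrep, per the labels' protocols) of 16 samples were measured. The authors deposited 1 table of raw counts per cell line. The build is hg38 per the submitters' processing notes. Aligner, counting tool, annotation and strand setting: not given in the sources used here. Counts were fitted per line with edgeR 4.0.16 (R 4.3.3): filterByExpr (12279 of 12592 genes kept in KMS12PE, 14088 of 14560 in KMS27), TMM, 1 mean per population over the 8 libraries of the line, quasi-likelihood tests and Benjamini-Hochberg adjustment over all genes. A joint fit covered the 11623 shared genes. DESeq2 1.42.0, other scalings, no filter, the replicate number as a block, fits of 2 populations and each library left out were alternatives. On simulated counts, the test recovered 73.5% of genes changed by 1 on the log2 scale for KMS12PE clone A (12138 genes run) and 66% for KMS27 clone B5 (13823 genes run). The changed genes were drawn from all tested genes, so these shares give no rate for histone genes with few counts. Symbols were matched to GENCODE 29 (all 58 members) and to RefSeq promoters (49 members). Named genes are the variants, the clustered genes called (up to 12 a line by adjusted p, the remaining 5 also named), the 5 most abundant clustered genes and up to 4 called genes of each other list, with SLBP, NPAT and CASP8AP2 always. Those 5, and members named only as partners of a pair or from unadjusted or joint tests, were chosen after their values were seen. Members and lists were chosen with earlier results of these data known. Intervals of counting error are not given for sums; 3 counts of a library serve as its floor.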

Additional observations from a re-analysis of the deposited data

Results flagged for a closer look

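These differences between groups passed the test of the difference itself, in edgeR's quasi-likelihood test with Benjamini-Hochberg adjustment over all genes. Between the lines, the mean response of the 3 clones (KMS12PE minus KMS27, log2) differed by 2.19 for H1F0, -0.80 for H1FX, -2.86 for HIST1H2BF, -2.04 for HIST1H2BG, -1.31 for HIST1H2BK and -1.94 for HIST3H2A. These were 6 of 41 histone genes, beside 14.2% of all genes called in either direction, so the count is near its background.

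Among the KMS12PE clones, the joint test gave adjusted p of 0.00446 for H2AFX, 0.0156 for HIST3H2A and 0.0229 for HIST3H2BB. Among the KMS27 clones it gave 0.0134 for H1F0, 0.0419 for H2AFV, 0.021 for HIST1H2AC, 0.00649 for HIST1H2AG, 0.0299 for HIST1H2BC, 0.0236 for HIST1H2BD, 0.00342 for HIST1H2BG, 0.0166 for HIST1H2BK and 0.0044 for HIST2H2AA4. These were 3 of 37 tested histone genes in KMS12PE, beside 8.22% of all genes, and 9 of 55 in KMS27, beside 13.7%. Both counts are near their backgrounds. HIST1H2BC, an H2B gene, had 3.58 and 3.35 CPM in clone B5, 1.95 and 2.96 CPM in clone C1 and 5.32 and 6.15 CPM in clone C5, against 3.66 and 3.51 CPM in parental libraries, with no call against parental cells.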

How the results depend on the processing

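Other size factors, no filter on low counts and joined copies moved no count of called histone genes by more than 1.5 times, and no alternative reversed a called direction. The median of all genes moved by at most 0.02 between scalings. With the replicate number as a block, a shared number being no more than a number in these labels (correlations of replicate differences 0.254 to 0.537 in KMS12PE and 0.0597 to 0.444 in KMS27), KMS12PE calls became 1 clustered gene lower in clone A, 1 clustered and 1 variant gene lower in clone C, and 2 variant genes higher and 3 lower in clone D, with 10 clustered and 6 variant genes differing among clones. The clustered gene lower in clones A and C was HIST2H4A, whose counts hold the uneven split with HIST2H4B. The share of all tested genes called rose with the block too, to 3.65% in clone A, 7.08% in clone C, 16.4% in clone D and 26.1% among clones. In KMS27 the block gave 5 variant genes higher in B5, 2 clustered genes lower in C1 and 13 clustered genes differing among clones, beside 25.8%, 27.8% and 21.0% of all genes called. DESeq2 gave 5 variant genes higher in B5 and 2 in C5, beside 21.4% and 19.9% of all genes called in either direction. Fits of 2 populations alone, with fewer libraries, gave 0 variant genes higher in B5. In C1 they gave 3 clustered and 2 variant genes lower. In C5 they gave 17 clustered and 3 variant genes higher and 2 variant genes lower. Over all genes these fits called 8.46% in B5, 34.8% in C1 and 31.6% in C5. With raw library totals the summed variant level was 1433 CPM in KMS27 clone C1, 1714 CPM in KMS27 clone C5 and 2783 CPM in KMS12PE parental cells. The causes of these differences were not tested.

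Without 1 library, clustered genes called in KMS27 ran from 3 to 11 higher and 0 to 3 lower in B5, 1 to 10 higher and 0 to 5 lower in C1, and 0 to 15 higher in C5. Variant genes ran from 0 to 6 higher in B5, 0 to 1 higher and 1 to 2 lower in C1, and 0 to 2 higher and 1 to 2 lower in C5, and among clones from 2 to 15 clustered and 0 to 7 variant. In KMS12PE the ranges were 1 to 2 clustered genes lower in clone D, 0 to 1 variant gene lower in clone C and 0 to 2 clustered genes differing among clones. The share of all genes called moved as well, for KMS27 clone C5 from 6.83% without C5 replicate 2 to 30.8% without B5 replicate 1. Where 1 library of a population was left, it was assumed to vary like the other populations. Most clustered genes of KMS12PE had under 100 counts in every library.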
